A study of Mus musculus with 40 samples.

Results

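The skeletal myosin heavy chains are the motor proteins of the thick filament, and the set described here holds the 8 genes Myh3, Myh8, Myh2, Myh1, Myh4, Myh13, Myh7b and Myh15. They were taken by name, with earlier results of these data known, from the 53647 genes that each deposited table lists. All 8 passed the filter on low counts in the fit across all libraries. Bulk RNA-seq was made from the larynx (called primitive laryngopharynx at E10.5 and vocal fold in part of the labels), the esophagus and the trachea of wild type FVB/N mice without treatment at 5 embryonic ages from E10.5 to E18.5. The larynx was also sampled on the day of birth (P0) and in adults, of 6 to 8 weeks by their labels. Each embryonic library pooled tissue of 10 animals, or of 20 animals at E15.5, and the sources used here do not say whether postnatal tissue was pooled. The 40 libraries are of 2 kinds, told apart by their names. The 30 with a short code in the name cover the 5 embryonic ages of each tissue with 2 libraries a group, and the 10 with a 6-base index cover E15.5 of each tissue, P0 larynx and adult larynx, also with 2 libraries a group.

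A muscle fiber's shortening speed depends on which heavy chain fills its thick filaments, and skeletal muscle exchanges these chains as it matures. Developing fibers carry the embryonic chain (Myh3), then the perinatal chain (Myh8), and after birth the adult fast chains 2A (Myh2), 2X (Myh1) and 2B (Myh4), of which 2B is the fastest in mice. Myh13 encodes the superfast chain known from extraocular and laryngeal muscle, and Myh7b and Myh15 encode ancient slow-tonic chains that are known from extraocular muscle and muscle spindles. The cardiac chains Myh6 and Myh7, the latter of which also serves slow skeletal fibers, are not members.

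Myh3, Myh2, Myh1, Myh4, Myh8 and Myh13 lie in this order on the forward strand of chromosome 11, within 293.3 kb at chr11:66969126-67262413 (GRCm39, GENCODE vM39). Myh7b lies at chr2:155453096-155476234 and Myh15 at chr16:48877849-49019467, both on the forward strand. The 250 bases before the RefSeq start sites (GRCm38.p6 table, 8 of 8 members matched) were compared, because the 4 members that came up together after E13.5 (Myh8, Myh2, Myh1 and Myh4, below) are neighbors that share promoter letters. The lines that follow show 30 bases around each shared element, placed by exact match on GRCm39 and read 5′ to 3′ on the forward strand, with the element in capitals.
Myh8 upstream element, chr11:67167839-67167868: gtccttgTCAAATTATTTATAGgagattgg
Myh2 upstream element, chr11:67061673-67061702: catcttcTCAAATTATCCATAGgagattta
Myh1 upstream element, chr11:67090705-67090734: caacaacTCAAATTATTTATAGgagattga
Myh4 upstream element, chr11:67128444-67128473: tcccctgTCAAATTATTTATAGatgacaag
Myh8 downstream element, chr11:67167888-67167917: atgaatacTTCTAATTATATCCgaagatgc
Myh2 downstream element, chr11:67061720-67061749: aaaaatatTTCTAATTATATCCaaccattc
Myh1 downstream element, chr11:67090760-67090789: gggaatatTTCTAATTATATCCaaacatcc
Myh4 downstream element, chr11:67128472-67128501: agaaatatTTCTAATTATATCCattcacag

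The downstream element of 14 bases was identical in these 4 promoters, as it was picked as the longest run that they share. It stood in none of the 32843 promoters of other genes, nor in those of Myh3, Myh13, Myh7b and Myh15. A given run of 14 bases is rare in any promoter, so this absence was likely beforehand. It does not show that the element is particular to these genes. The upstream element was identical in Myh8, Myh1 and Myh4, where it holds a match to the MEF2 consensus, the site of the MEF2 factors of muscle. That consensus, searched like all motifs here on both strands of the 250 bases, was found in 3 members, Myh8, Myh1 and Myh4, and in 2.92% of all 32851 promoters. The E-box CANNTG, bound by MYOD and its relatives, was found in 6 members and in 66.22% of all promoters, the TATA box TATAAA in 5 members and in 12.37%, and CATTCC, the core of sites for TEAD factors, in 2 members and in 12.64%. In Myh8, Myh1 and Myh4 a TATAAA on the reverse strand lies within the MEF2 match, so these matches overlap, and it is the TATAAA match that Myh8 has. Myh3, Myh1 and Myh4 also hold TATAAA on the forward strand between bases -32 and -24 from the start site. The printed places of Myh8, Myh1 and Myh4 also lie in exons of other annotated transcripts of these genes.

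The libraries held 3286403 to 35831491 expected counts. Expected counts come from RSEM, which shares out reads of uncertain origin among the genes they fit. Of the windows of 100 bases in the main transcript, 8.2% in Myh2, 7.82% in Myh1, 6.61% in Myh8, 3.89% in Myh4, 3.45% in Myh13 and 1.15% in Myh3 occurred also in another sarcomeric heavy chain, against 0 of 6100 in Myh7b and 0 of 6241 in Myh15. A low value of a chain beside a very high one is therefore uncertain where they share windows. Antisense genes overlap Myh2, Myh1, Myh4, Myh8, Myh7b and Myh15, and the sources used here do not say whether counting used strand, so sense and antisense reads cannot be told apart. Levels below are counts normalized by median-ratio factors and divided by the length of the main transcript in kb, which makes different chains comparable within a library. A share is a chain's part of the summed level of the 8 members in the same library, so it compares the chains with each other and not with the rest of the tissue.

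The muscle content of the pieces changed strongly with age. Ryr1, Cacna1s and Neb, which encode the calcium release channel, its voltage sensor and nebulin, summed to 8.97 to 504 CPM (counts scaled to a fixed library total) at E10.5 to E13.5, to 1944 to 5666 CPM in short-code libraries of E15.5 and E18.5, and to 1638 to 3093 CPM in larynx at P0 and in adults. In the index libraries of E15.5 the same genes summed to 528 to 1342 CPM in larynx, 762 to 961 CPM in esophagus and 102 to 401 CPM in trachea. The trachea pair thus lay within the range of E10.5 to E13.5. In bulk tissue, fewer muscle cells and less RNA per cell cannot be told apart. These genes were high in short-code libraries of all 3 tissues from E15.5 on, also in pieces labelled trachea, an organ whose own muscle is smooth muscle.

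The library labelled index E15.5 esophagus 2 went against its age. It held 863057 normalized counts of the mature epithelial keratin Krt4, against 8268 in the other index library of that group. Its Chrng, the fetal subunit of the acetylcholine receptor, stood at 17.2 normalized counts and its adult counterpart Chrne at 59.7, against 744 and 2.07 in the other. Its heavy chains also stood apart, as given below, and the comparison of both kinds of library at E15.5 is given with and without it. The counts of members called were repeated without 4 libraries, this one and the short-code libraries E11.5 larynx 2, E15.5 trachea 2 and E15.5 larynx 2, which were chosen with earlier results of these data known.

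The leading heavy chain changed from embryonic to perinatal to fast 2B with age. The 6 index libraries of E15.5 were divided, with Myh3 leading in 3 and Myh8 in 3, among them esophagus 2. The P0 and adult ages rest on index libraries alone. Myh3 held the largest share in 17 of the 18 libraries of E10.5 to E13.5, Myh8 in all 12 short-code libraries of E15.5 and E18.5 and in both P0 larynx libraries, and Myh4 in both adult larynx libraries. These leads use the length of the main transcript, 6149 bases for Myh8 and 5954 for Myh4. All annotated exons merged span 12161 and 6627 bases, so the lead of Myh8 over Myh4 in E18.5 trachea depends on the length used. At E13.5 the composition was nearly the same in the 3 tissues. Myh3 took 74.8% ± 2.06 (SD, n = 2) in larynx, 74.6% ± 2.27 in esophagus and 74.0% ± 0.885 in trachea, and Myh8 took 20.7 to 24.3% over the 6 libraries. The differences between tissues were within the spread of replicates. In adult larynx Myh4 took 88.6% ± 1.72 and Myh1 took 10.1% ± 1.51, and Myh13, the next in order, took 0.660% ± 0.111.

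**Figure D1:**
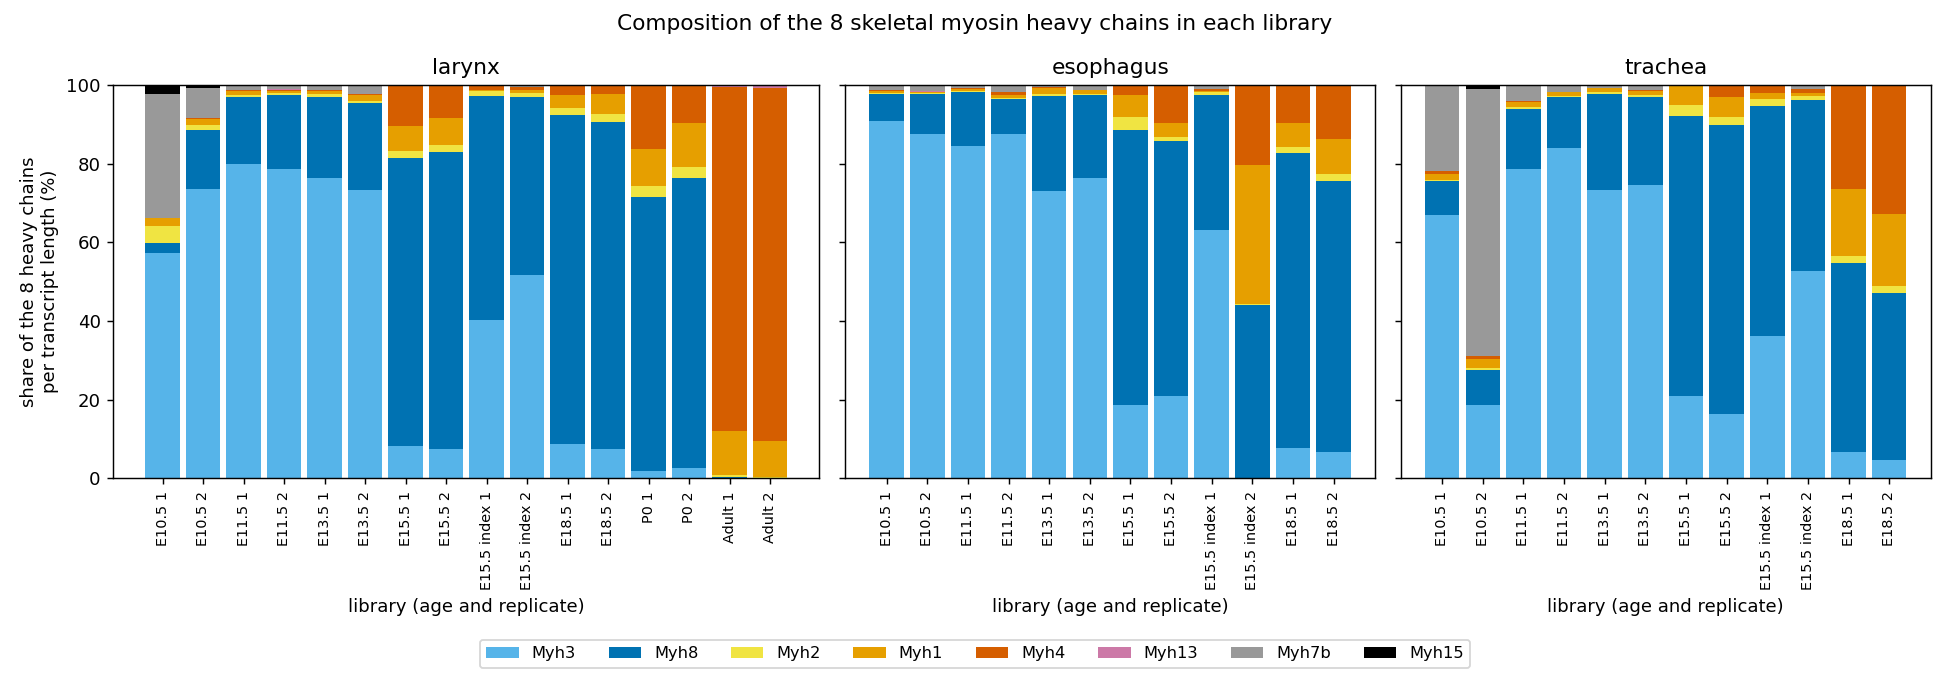
Stacked bars give the share of each of the 8 heavy chains (percent of their summed level per transcript length, y axis) in each of the 40 libraries, ordered by age within tissue (x axis). Myh3 is the largest segment at E10.5 to E13.5 except in E10.5 trachea 2, Myh8 in the short-code bars of E15.5 and E18.5 and at P0, and Myh4 in adult larynx, and the bar of index E15.5 esophagus 2 holds almost no Myh3 (0.0141%).

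The exception at E10.5 came from libraries with very few heavy chain reads. In E10.5 trachea 2 the slow-tonic Myh7b held 67.8% of the summed level, with 116 of 171 counts, and the exact (Clopper-Pearson) 95% interval of its share of counts was 60.3 to 74.8%, which covers counting error only. In E10.5 larynx 1 all 8 chains summed to 41 counts, of which 23 were Myh3. Heart genes were also present in the E10.5 trachea pieces, where 8 of 8 heart markers were detected and summed to 1031 and 1798 CPM, against 6.80 to 11.2 CPM in E10.5 larynx. Myh7b is also expressed in heart, and the part of heart tissue in its share was not tested.

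From E13.5 to short-code E15.5 embryonic Myh3 rose in level while its share was lower in every library. Its level was 4.50 and 22.2 normalized counts per kb in E10.5 larynx, 817 and 453 at E11.5, 407 and 474 at E13.5, 5144 and 4276 at short-code E15.5, and 11835 and 9512 at E18.5. In esophagus it was 280 and 182, then 1291 and 258, 1068 and 2894, 14511 and 4980, and 7425 and 4717 at the same ages. In trachea it was 51.9 and 5.50, then 374 and 396, 849 and 333, 6269 and 7405, and 4571 and 3435. The E18.5 larynx libraries were above every other larynx library, and no short-code library of E15.5 or E18.5 overlapped with those of E13.5. P0 larynx held 867 and 1449 and adult larynx 2.80 and 1.82, the lowest Myh3 levels of the larynx. Ordered by group mean, E18.5 larynx (10674 ± 1643, SD) stood above short-code E15.5 esophagus (9745 ± 6739) and short-code E15.5 trachea (6837 ± 803), and each of these neighbors overlapped with the next.

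Perinatal Myh8, the chain between the embryonic and the adult forms, had the highest level of any member. In larynx its level was 0.192 and 4.50 normalized counts per kb at E10.5, 175 and 107 at E11.5, 110 and 143 at E13.5, 45217 and 43301 at short-code E15.5, and 115028 and 106117 at E18.5. In esophagus it was 352 and 804 at E13.5, 53962 and 15464 at short-code E15.5, and 71944 and 49073 at E18.5. In trachea it was 281 and 99.7, then 21395 and 33422, and 32641 and 30539. E18.5 larynx (110573 ± 6301) lay above E18.5 esophagus (60508 ± 16172) without overlap, and E18.5 esophagus above short-code E15.5 larynx (44259 ± 1355). P0 larynx held 32049 and 40946 and adult larynx only 85.6 and 13.97.

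The ratio of Myh8 to Myh3 within a library set both chains against each other without reference to other genes. On the log2 scale, with 1 added to each normalized count, it was -1.71 ± 0.12 (SD, n = 6) at E13.5, from -1.85 to -1.57. It was 2.35 ± 0.73 in the 6 short-code libraries of E15.5, from 1.66 to 3.37, and 3.26 ± 0.22 in the 6 of E18.5, from 2.86 to 3.51. The groups of E13.5 and of the later ages did not overlap. The difference was 4.97 from E13.5 to E18.5 and 4.06 from E13.5 to E15.5, each with p = 0.00926 in an exact two-sided permutation test within tissues, the smallest p that its arrangements allow. At short-code E15.5 the larynx stood at 3.16 and 3.37, above the trachea at 1.80 and 2.20 and the esophagus at 1.92 and 1.66, and at E18.5 the 3 tissues lay closer together.

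**Figure D2:**
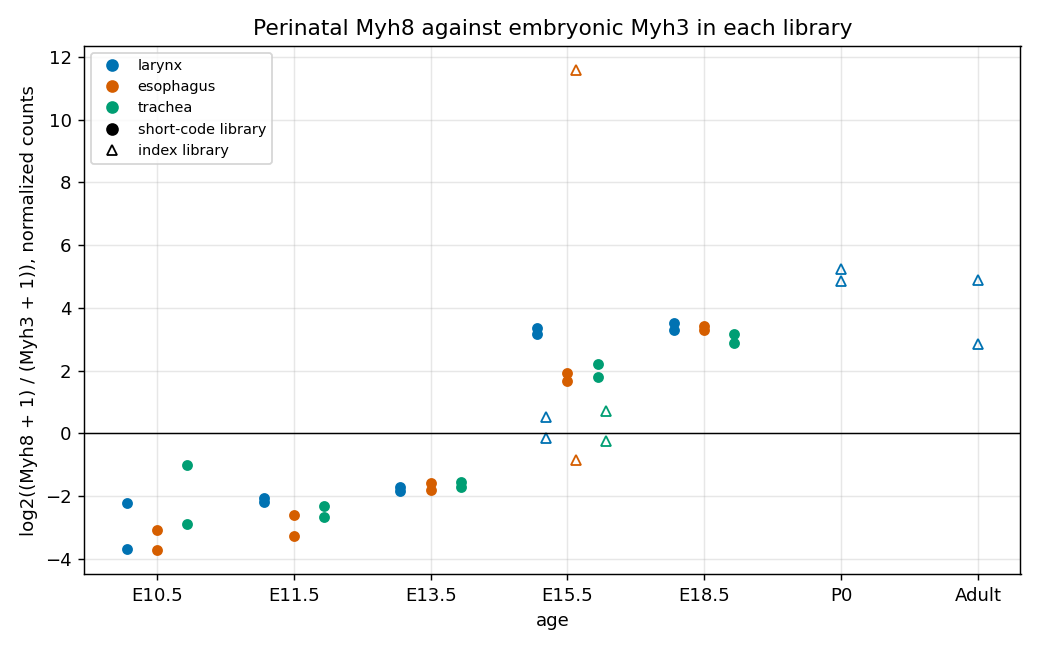
Points give log2((Myh8 + 1)/(Myh3 + 1)) of normalized counts (y axis) in each library by age (x axis), with color for tissue, filled circles for short-code and open triangles for index libraries. All E13.5 libraries lie between -1.85 and -1.57 and all E18.5 libraries between 2.86 and 3.51, while the index libraries of E15.5 lie between -0.86 and 0.71 except for esophagus 2 at 11.6.

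The adult fast chains came up from near the limit of counting. Myh4, the 2B chain of the fastest fibers, had 2 to 35 expected counts in each library at E13.5, with levels of 0.666 and 1.63 normalized counts per kb in larynx, 2.75 and 5.23 in esophagus and 1.16 and 0.496 in trachea. At short-code E15.5 it reached 6410 and 4735 in larynx, 1876 and 2289 in esophagus and 67.6 and 1420 in trachea, so the pair from trachea differed more than the pairs of the other tissues at this age. At E18.5 it stood at 3422 and 2938 in larynx, 9290 and 9770 in esophagus and 17977 and 23519 in trachea. In larynx the E18.5 libraries were thus below those of short-code E15.5, while in trachea and esophagus they were above. The larynx pieces of these ages also differed in other tissue. Thyroid markers summed to 2254 to 2717 CPM at short-code E15.5 and 21.7 to 557 CPM at E18.5. Airway epithelium markers summed to 379 to 402 and 4.91 to 8.17 CPM, and the muscle reference genes to 4916 to 5131 and 5168 to 5666 CPM. The part of this difference in the Myh4 levels of larynx was not tested. P0 larynx held 7425 and 5394 and adult larynx 29705 and 24808. Adult larynx (27256 ± 3463) and E18.5 trachea (20748 ± 3919) were the highest groups and did not overlap.

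Myh1, the 2X chain of fast fibers, had levels of 4.42 and 8.89 normalized counts per kb in E13.5 larynx, 23.05 and 31.6 in esophagus and 11.9 and 4.70 in trachea. At E18.5 it reached 4465 and 6601 in larynx, 5787 and 6383 in esophagus and 11585 and 13198 in trachea, where it was highest of all groups. P0 larynx stood at 4390 and 6182 and adult larynx at 3799 and 2496. Myh2, the 2A chain of fast oxidative fibers, had its highest group mean in E18.5 larynx (2461 and 2393), with a single higher library in short-code E15.5 esophagus (2544, beside 269.7 in its pair). It stood at 1213 and 1585 in P0 larynx, and was down to 187 and 83.4 in adult larynx. Its share was 1.73 to 1.92% in all 6 libraries of E18.5, whereas that of Myh4 ran from 2.30 to 32.7% there. The summed share of the 3 fast chains at E18.5 was 7.54 and 9.35% in larynx, 17.4 and 24.4% in esophagus, and 45.3 and 52.8% in trachea, without overlap between the tissues. Thyroid markers (5 of 5 detected in each group) stood in the same order at E18.5, with summed levels of 21.7 to 557 CPM in larynx, 1918 to 3433 CPM in esophagus and 6753 to 10084 CPM in trachea. The short-code E15.5 trachea pair, with Myh4 at 67.6 and 1420, held 34.1 and 25532 normalized counts of thyroglobulin (Tg), while the esophagus pair of that age, with Myh4 at 1876 and 2289, held 44.9 and 29.03. The part of thyroid tissue in these results was not tested.

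The superfast Myh13 had its highest levels in adult larynx. It had at most 3.01 expected counts in each of the 18 libraries of E10.5 to E13.5 and was at 0 in 14 of them, where 0 counts allow up to 3. At short-code E15.5 it had 48.5 and 25.2 counts in larynx, 27.1 and 0 in esophagus and 12.2 and 7.14 in trachea, and at E18.5 it had 2.01 and 2.91 in larynx, 2.04 and 5.09 in esophagus and 45.2 and 31.2 in trachea. P0 larynx had 107 and 94.1 counts, or 9.73 and 11.0 normalized counts per kb, and adult larynx 1489 and 1914 counts, or 198 and 204 per kb. Adult larynx lay far above P0 without overlap, and index E15.5 esophagus 2 held 134 counts, or 16.5 per kb. With 3.45% of its windows shared with other chains, its low embryonic counts beside very high Myh8 are uncertain.

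The slow-tonic chains stayed low. Myh7b, which hosts the microRNA gene Mir499, lay between 0.361 and 105 normalized counts per kb over the 40 libraries, with its 2 extremes both in index E15.5 esophagus. Its adult larynx levels were 1.82 and 0.833, lower than the 8.36 and 19.4 of P0. Over the 36 embryonic libraries its log2 level had a Pearson r of 0.64 with Myh7, 0.51 with Myh3, 0.43 with Myh6 and -0.02 with the atrial light chain Myl7, as a description over libraries that share ages and tissues. Myh15 was at 0 in 13 of the 40 libraries and had at most 33 counts in any, in index E15.5 larynx 2, so its levels are near the limit of counting throughout.

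**Figure D3:**
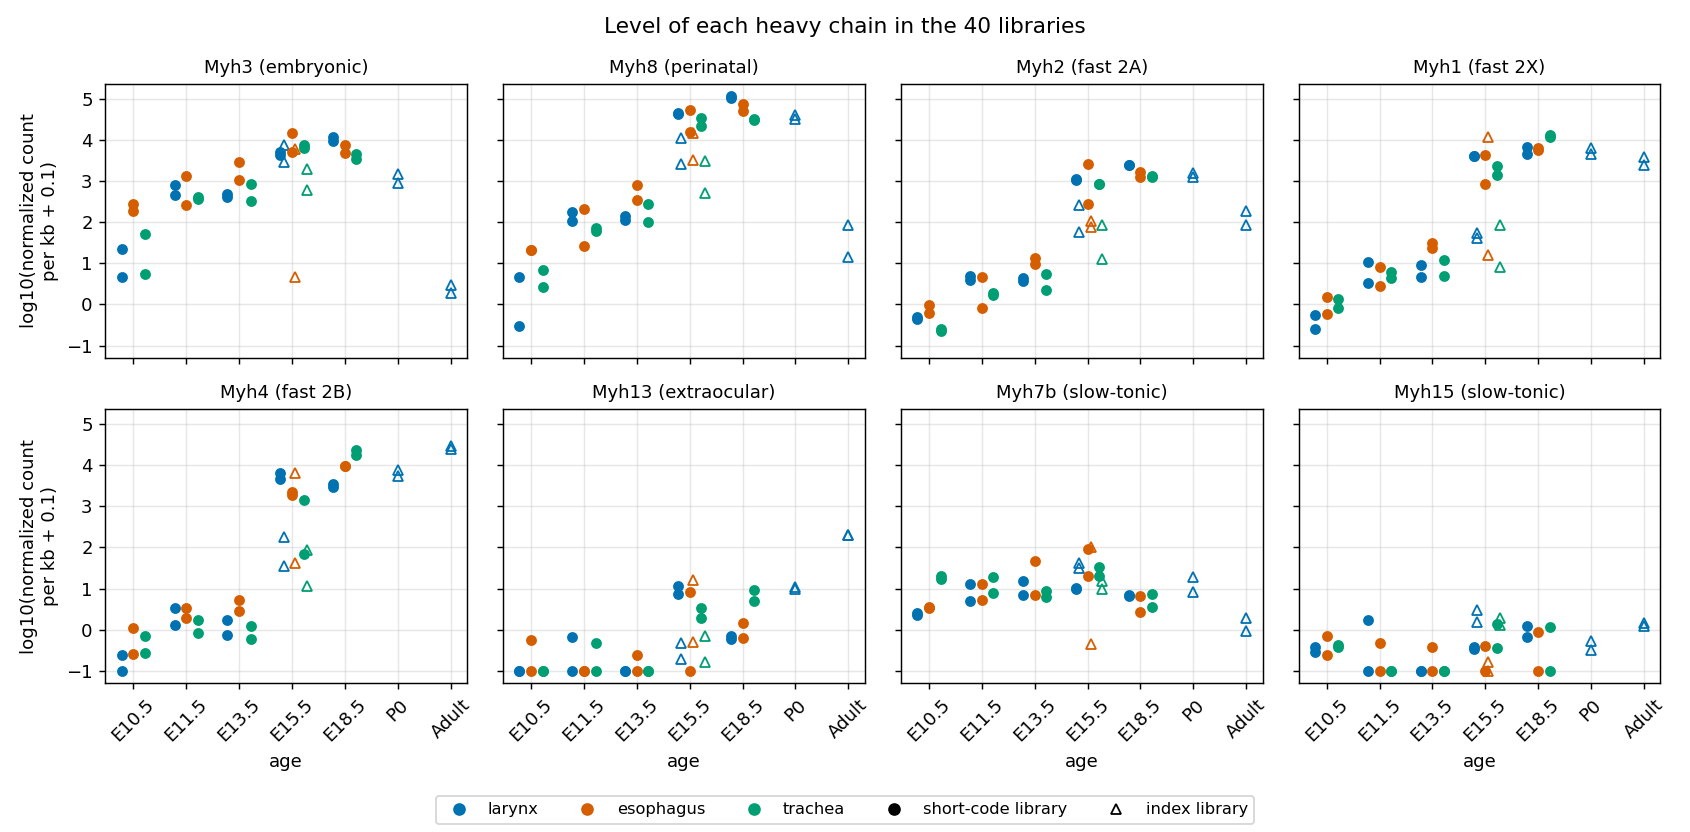
Each panel gives the level of 1 heavy chain, as log10 of normalized counts per kb plus 0.1 (y axis), in the 40 libraries by age (x axis), with color for tissue and symbol for kind of library. Myh8, Myh2, Myh1 and Myh4 jump between E13.5 and E15.5, Myh3 and Myh8 are low in adult larynx, and Myh13 reaches 198 and 204 normalized counts per kb in adult larynx.

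How levels changed with age was tested across all genes with a spline on the rank of age (adjusted p at most 0.01) and with contrasts of group means (adjusted p under 0.05). Over the 36 embryonic libraries 7 of the 8 members changed with age, all but Myh15 (adjusted p = 0.258), where 34.3% of all genes did. Within the larynx, P0 and adult included, 6 members changed, against 26.1% of all genes, and the exceptions were Myh7b (adjusted p = 0.0132) and Myh15 (adjusted p = 0.784). Within the other tissues the adjusted p of Myh3 was 0.173 in esophagus and 0.0096 in trachea, and that of Myh4 was 0.00247 and 0.000599. The call of Myh7b over the embryonic libraries was lost without index E15.5 esophagus 1 or short-code E15.5 esophagus 1, and that of Myh3 in trachea in 11 of the 40 fits that left out 1 library. The splines pooled both kinds of library without a term for kind. In larynx the P0 and adult ages are index libraries alone, so age and kind cannot be told apart there. With short-code libraries alone, thus embryonic ages only, 21 member calls of the splines were kept and 1 was lost.

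The step from E11.5 to E13.5 moved no member past the threshold in edgeR or DESeq2 (21.5% of all genes called in edgeR) and 1 past an unadjusted p of 0.05. Myh8 had the smallest adjusted p, with a log2 fold change of 1.22 ± 0.54 (SE) and adjusted p = 0.112. From E13.5 to E15.5, averaged over the tissues in short-code libraries, 6 members rose, where 19.6% of all genes rose and the median gene moved by 0.70. Myh3 rose by 3.08 ± 0.75 (adjusted p = 0.00234), Myh8 by 7.18 ± 0.70 (adjusted p = 1.51e-08), Myh2 by 7.59 ± 0.56 (adjusted p = 3.17e-10), Myh1 by 7.86 ± 0.89 (adjusted p = 1.51e-07) and Myh4 by 10.32 ± 0.98 (adjusted p = 1.14e-08). Myh13 also rose (adjusted p = 0.000184), from 0 or 1 counts a library, so that its fold has no firm base, and its call was lost without short-code E15.5 esophagus 1. The muscle reference genes rose in the same step, Neb by 5.36 ± 0.49, Ryr1 by 5.14 ± 0.43 and Cacna1s by 4.84 ± 0.48, less than Myh8 and the fast chains and more than Myh3. Their part in the rise of the members was not tested.

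From E15.5 to E18.5 no member passed the threshold in edgeR, where 2.84% of all genes were called, while 3 members had an unadjusted p under 0.05 and DESeq2 called 2, Myh4 and Myh7b. The nearest were Myh7b, with -2.18 ± 0.65 (adjusted p = 0.0662), and Myh4, with 2.06 ± 0.66 (adjusted p = 0.0888), and Myh3 and Myh8 had changes of -0.09 ± 0.70 and 0.78 ± 0.53. Both Myh7b and Myh4 passed without either index E15.5 esophagus library, Myh7b also without E11.5 larynx 1, and Myh4 without short-code E15.5 trachea 2. Over the whole interval from E13.5 to E18.5, 7 members rose, all but Myh7b, where 13.9% of all genes rose. Of these, Myh13 (adjusted p = 0.00641) and Myh15 (adjusted p = 0.0115) rest on few counts, and the call of Myh15, at 4.01, was lost without E18.5 esophagus 2 or E18.5 trachea 2, the latter giving 2.34. Myh4 rose most, by 12.38 ± 1.05 (adjusted p = 1.24e-09), followed by Myh1, Myh2 and Myh8 at 9.34, 8.21 and 7.95, and Myh3 rose by 2.99 ± 0.75 (adjusted p = 0.0032). By tissue, Myh8, Myh2, Myh1 and Myh4 rose in each (5.43% of all genes rose in larynx, 6.14% in esophagus and 6.44% in trachea). Myh3 passed the threshold in larynx, at 4.60 ± 1.40 (adjusted p = 0.0379), but not in esophagus, at 1.62 ± 1.24 (adjusted p = 0.573), or in trachea, at 2.76 ± 1.29 (adjusted p = 0.207). Its call in larynx was lost without any 1 of the 4 libraries compared. Myh13 passed in trachea (adjusted p = 0.0202), from 0 counts in both E13.5 libraries, and this call was lost without E13.5 trachea 1, E13.5 trachea 2 or E18.5 trachea 1.

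These tissue differences were themselves tested. As a mean of E13.5 to E18.5, no member passed the threshold between larynx and esophagus (0.00274% of all genes called), larynx and trachea (0.0%) or trachea and esophagus (0.0548%). None passed in its change from E13.5 to E18.5 between larynx and esophagus (0.00822%) or larynx and trachea (0.0%). Hardly any gene was called in these comparisons, so they do not show that the members are alike between tissues. Myh13 and Myh15 could not be estimated between larynx and trachea, where both were at 0 at E13.5. DESeq2 called no member either. An unadjusted p under 0.05 was reached by 2 members, Myh8 and Myh2, in the change of larynx against esophagus and by 0 in the other 4 comparisons. For the change of Myh3, larynx minus esophagus was 2.98 ± 1.74 (adjusted p = 1.0). The opposite course of Myh4 in larynx and trachea between E15.5 and E18.5, a comparison chosen after the values were seen, gave a difference of 5.61 ± 1.66 with adjusted p = 0.234, where 0.2% of all genes were called. Leaving out each library in turn gave 4.67 to 9.07, the highest without short-code E15.5 trachea 2, and the difference passed the threshold without that library or without either index E15.5 esophagus library. At E18.5 Myh4 in larynx minus trachea was -2.71 ± 1.17 (adjusted p = 0.74), where 0.118% of all genes were called, although the levels of the 2 groups did not overlap. With no filter on low counts 4 members were called between trachea and esophagus (2.88% of all genes called in that fit) and 4 in the change of larynx against esophagus (1.39%).

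The larynx around birth was compared within index libraries. From E15.5 to P0, Myh1 rose by 6.83 ± 1.46 (adjusted p = 0.0308) and Myh4 by 5.89 ± 1.35 (adjusted p = 0.0423), where 0.362% of all genes rose. Myh1 stood at 52.8 and 40.1 normalized counts per kb at index E15.5 and Myh4 at 181 and 35.9, below their P0 libraries without overlap. The short-code larynx libraries of E15.5 stood far higher, with Myh1 at 3983 and 3967 and Myh4 at 6410 and 4735, so that Myh4 there overlapped with P0 and Myh1 lay just under it. With both kinds of library in 1 group at E15.5 neither call was kept, with Myh1 at 1.40 (adjusted p = 0.781) and Myh4 at 1.17 (adjusted p = 0.795). The call of Myh1 was lost without any 1 of these 4 libraries, and that of Myh4 in 26 of the 40 fits that left out 1 library. Myh3 had a change of -2.19 ± 1.26 (adjusted p = 0.539) and Myh8 of 2.45 ± 0.97 (adjusted p = 0.277). From P0 to adult, 3 members fell, where 2.03% of all genes fell. Their log2 fold changes were -9.52 ± 1.33 for Myh8 (adjusted p = 0.000122), -8.97 ± 1.75 for Myh3 (adjusted p = 0.00278) and -3.37 ± 0.78 for Myh2 (adjusted p = 0.0113). Without either adult library 1 member was called, Myh8, and the call of Myh2 was also lost without P0 larynx 2. Myh4 had a change of 2.09 ± 1.14 (adjusted p = 0.448), Myh1 of -0.75 ± 1.13 (adjusted p = 0.959) and Myh13 of 4.27 ± 1.27 (adjusted p = 0.0612). Leaving out each library in turn gave 4.18 to 4.36 for Myh13, and whether it passed the threshold depended on the library left out. Of the muscle reference genes, Ryr1 and Cacna1s had changes of 0.23 ± 0.62 and 0.13 ± 0.71 in this step and Neb of -0.73 ± 0.71 (adjusted p = 0.824). Their summed level was 1991 to 3093 CPM at P0 and 1638 to 2133 CPM in adults, and that of the 12 thin filament genes was 25423 to 28501 and 10651 to 10946 CPM, and the part of muscle content in the member results was not tested.

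**Figure D4:**
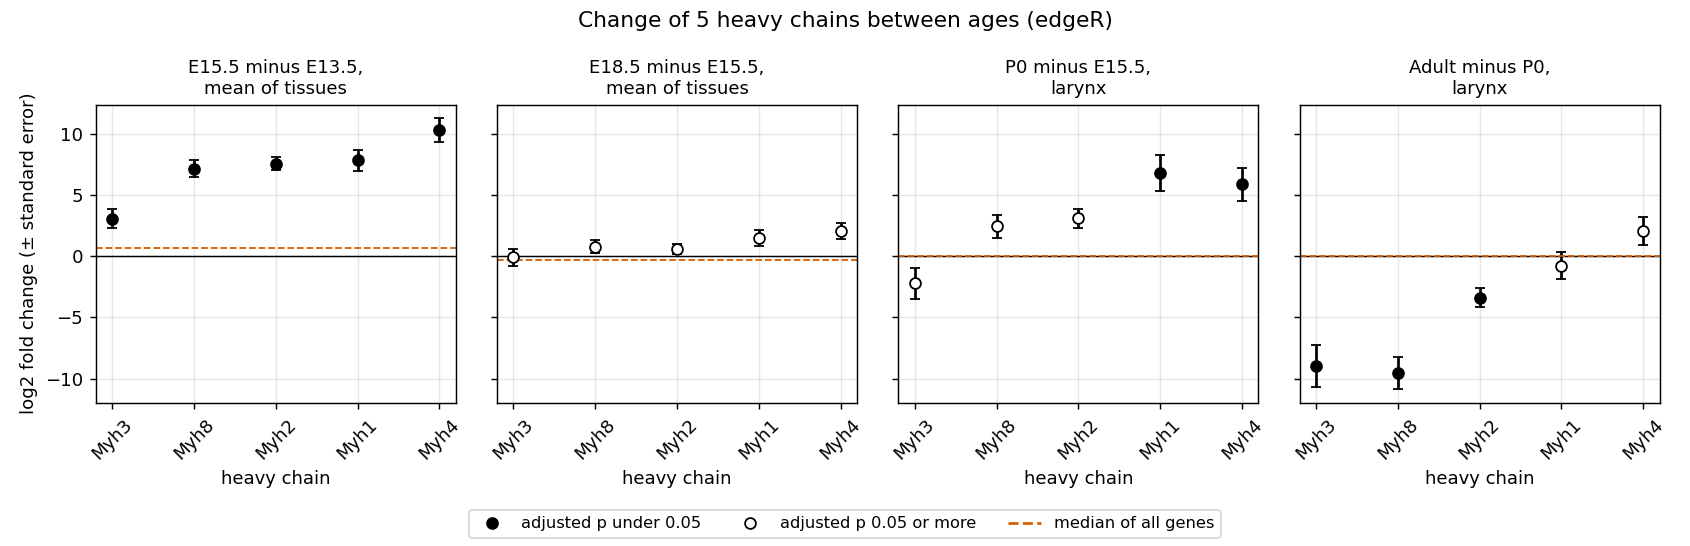
Points give the log2 fold change from edgeR with its standard error (y axis) of Myh3, Myh8, Myh2, Myh1 and Myh4 (x axis) in 4 comparisons of ages, filled where the adjusted p was under 0.05, with the median of all genes as a dashed line. All 5 are raised from E13.5 to E15.5, none passes from E15.5 to E18.5, Myh1 and Myh4 are raised in P0 larynx, and Myh3, Myh8 and Myh2 are lower in adults.

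The 2 kinds of library differed in heavy chain composition at E15.5. In 5 of the 6 index libraries Myh3 kept a larger share, at 40.3 and 51.7% in larynx, 36.3 and 52.8% in trachea and 63.2% in esophagus 1, against 7.45 to 20.9% in the 6 short-code libraries of the same age, without overlap. The library esophagus 2 went the other way, with 0.0141% Myh3, 44.1% Myh8, 35.3% Myh1 and 20.3% Myh4. Averaged over the tissues, 5 members were lower in index than in short-code libraries, where 16.1% of all genes were lower and the median gene moved by -0.39. These were Myh8 (-2.89 ± 0.57, adjusted p = 0.000298), Myh2 (-3.59 ± 0.46, adjusted p = 8.98e-07), Myh1 (-3.52 ± 0.72, adjusted p = 0.000442), Myh4 (-2.98 ± 0.68, adjusted p = 0.00142) and Myh13 (-2.35 ± 0.80, adjusted p = 0.0322). Without esophagus 2 the same 5 members were called, with Myh1 at -6.34 and Myh4 at -5.08. Myh13 stood at 0.23 (adjusted p = 1.0) without short-code E15.5 esophagus 1, and its call was also lost without index trachea 2, index larynx 2, short-code larynx 1 or short-code trachea 1 of this age. Neb, Ryr1 and Cacna1s were lower too, with a median of -2.55. Kind of library, run and dissection cannot be told apart here, and mitochondrial ribosomal RNA took 9.30 to 32.2% of counts in short-code and 0.050 to 0.196% in index libraries. Since P0 and adult larynx exist as index libraries alone, they were set against E18.5 only after the values were seen, and no member passed in edgeR between E18.5 and P0 larynx (4.57% of all genes called, 2 members at an unadjusted p under 0.05), with Myh3 at -3.20 ± 1.31 (adjusted p = 0.199).

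Genes of the same sarcomere moved with the heavy chains between E13.5 and E15.5. In this step 19.6% of all genes rose and 10.7% fell. Of the 12 thin filament genes tested 8 rose and 2 fell, with skeletal actin Acta1 at 6.77 ± 0.67 and Neb at 5.36 ± 0.49, with a list median of 2.77 beside 0.70 for all genes. Of the 14 genes of the thick filament and Z disc all rose, such as titin (Ttn, 3.56 ± 0.55) and slow myosin binding protein C (Mybpc1, 6.96 ± 0.51). All 11 genes of calcium release and energy supply rose, such as muscle creatine kinase (Ckm, 7.42 ± 0.65) and the fast calcium pump (Atp2a1, 6.64 ± 0.65). Of the 6 myosin light chains, the partners of the heavy chains, 4 rose and 1 fell, with fast Mylpf at 6.13 ± 0.54 and Myl4 at -1.90 ± 0.51. Heart markers fell in the same step, as given below, and their part in the falls of Myl4 and of thin filament genes was not tested. All 6 genes of the acetylcholine receptor list rose, with a median of 2.68.

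Regulators moved less evenly. Of 15 myogenic regulators 10 were higher and 2 lower at E15.5 than at E13.5, beside 19.6% and 10.7% of all genes, with myogenin (Myog) at 1.64 ± 0.43 and Myf6, the regulator of late fibers, at 7.29 ± 0.58. Of 15 regulators of fiber type 10 rose, including Mef2c (2.02 ± 0.24) and Mef2d (0.92 ± 0.15), the factors that bind the MEF2 consensus, whereas the thyroid hormone receptor Thra moved by -0.04 ± 0.14 (adjusted p = 1.0). A further list of 6 genes includes factors of myosin folding, methylation and turnover. Of these 6 genes 1 rose, Apobec2 at 2.01 ± 0.50, whose part in those functions was not tested. Another 1 fell, the chaperone Hsp90aa1 at -0.73 ± 0.20, and the myosin methyltransferase Smyd1 stood at 0.27 ± 0.39 (adjusted p = 0.832). All 8 heart markers fell in this step, with a median of -8.37, and Myh6 stood at -5.93 ± 0.87 while Myh7 stood at 1.05 ± 0.64 (adjusted p = 0.248). Heart markers summed to 435 to 10335 CPM at E13.5 and to 19.5 to 71.6 CPM in short-code E15.5 libraries. In E13.5 larynx heart markers summed to 6501 to 10335 CPM. The muscle reference genes there summed to 61.5 to 67.6 CPM, below the 121 to 240 CPM of E11.5 larynx, while in esophagus and trachea these ages overlapped. The part of heart tissue in the results for the 8 members and for the gene lists of this step was not tested.

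Between P0 and adult larynx, where 2.03% of all genes fell, some genes of the other lists fell too. Of the 6 light chains 3 fell, among them Myl4 with a log2 fold change of -5.08 ± 1.03 (adjusted p = 0.0038). Of the 6 acetylcholine receptor genes 2 fell, Chrna1 at -2.51 ± 0.62 (adjusted p = 0.0172) and, named after its value was seen, the fetal subunit Chrng at -5.71 ± 1.02 (adjusted p = 0.00134). Of 15 myogenic regulators 4 fell, and by the same later choice Mymk, needed for myoblast fusion, is given at -8.42 ± 1.23 (adjusted p = 0.000249) and Myog at -2.83 ± 0.77 (adjusted p = 0.0335). Of the 12 thin filament genes 2 fell, the slow forms Tnni1 and Tnnc1 at -5.86 ± 0.88 and -6.31 ± 1.32, also named later. None of the 14 genes of the thick filament and Z disc passed in edgeR, and the list median was -0.62. Slow and cardiac Myh7 also fell, with a log2 fold change of -4.96 ± 1.31 (adjusted p = 0.0267). Thyroid genes also differed between these libraries, with Tg at -10.2 ± 2.03, and thyroid markers summed to 4780 to 8325 CPM at P0 and to 14.7 to 19.6 CPM in adults. Their part in the heavy chain results was not tested.

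The genes whose profile was most like that of each chain differed between chains. Over the 40 libraries and among 18352 genes with a mean of at least 10 normalized counts, Myh3 lay nearest to Gjd4 (Pearson r = 0.96), AW551984 (0.95) and the fusion gene Mymk (0.91). Myh8 lay nearest to Tceal7 (0.96), Atp1b4 (0.95) and Prr32 (0.94), and Myh2 to Tmem117 (0.98), Ampd1 (0.97) and Mybpc1 (0.97). Myh1 lay nearest to Mybpc2, Cacna1s and Atp2a1 (each 0.97), and Myh4 to Fam240b (0.98), Cwh43 (0.97) and the calcium sensor gene Stim1 (0.97). Myh13 lay nearest to Lyz1 (0.90), Klhl33 (0.90) and Smco1 (0.90), and for Myh7b the highest value was 0.78, with Hif3a. These values are descriptions over libraries that share age and muscle content. The myosin antisense gene Myhas, which overlaps Myh1 and Myh4, had 75.6 and 74.9 normalized counts in adult larynx and 49.6 and 44.8 in P0 larynx. It had 29.9 and 38.0 in E18.5 trachea and 181 in index E15.5 esophagus 2. Its reads cannot be told apart from those of the far higher heavy chains that it overlaps.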

How the data were processed

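The authors aligned reads to GRCm39 with Bowtie2 2.4.2 within RSEM 1.3.3, and deposited the expected counts per gene in 2 tables of 30 and 10 libraries, which sum to 3286403 to 35831491 per library. For their annotation release: not given in the sources used here. Of 53647 Ensembl identifiers 52610 matched GENCODE vM39, which gave symbols, positions and transcript lengths. For the fits each expected count was rounded, and a gene was kept where 2 or more libraries had a normalized count of 1 or more. Contrasts were fitted with edgeR (quasi-likelihood F test, median-ratio factors) on the means of 20 groups over 40 libraries with 20 residual degrees of freedom, which tested 36495 genes, and adjusted p-values are Benjamini-Hochberg over all of them. Change with age was tested with a natural spline (3 df) on the rank of age. The study's methods call the 2 libraries of a group biological replicates, as the names of P0 and adult libraries do (BioRep), without saying whether embryonic pairs came from separate pools. The p-values therefore rest on how far those pairs differed, which may be technical in part. The fits were tested on simulated counts with the same spread for all genes and large changes in well counted genes only. That test does not cover members with few counts or pairs of libraries that differ strongly. The members and gene lists were chosen with earlier results of these data known. Genes of a list were named as its 3 with the highest mean normalized count, unless said to be named later. Likeness used genes with a mean of at least 10 normalized counts.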

Additional observations from a re-analysis of the deposited data

How the results depend on the processing

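Counts of members called kept within 1.5 times of those reported with TMM factors. With no filter on low counts they moved to 4 from E11.5 to E13.5, 6 from E15.5 to E18.5, 7 from E13.5 to E18.5 in esophagus, 6 from E15.5 to P0, 6 from P0 to adult, 1 between larynx and esophagus, 4 between trachea and esophagus, and 4 and 3 in the change of larynx against esophagus and against trachea, and the cause was not tested. With DESeq2 the counts were 2 from E15.5 to E18.5, 4 from E15.5 to P0 and 5 from P0 to adult. With both kinds of library together they were 2 from E15.5 to E18.5 and 0 from E15.5 to P0. Without the 4 libraries that stand apart they were 3 from E15.5 to E18.5, 4 from E15.5 to P0, 6 from P0 to adult and 1 between trachea and esophagus. In the replicate block fit 4 members were called between kinds of library and 4 in the trachea spline, and the calls of Myh4 from E15.5 to P0, of Myh13 between kinds of library and of Myh3 in the trachea spline were lost. The replicate numbers were not taken as pairs, since 43 of 190 pairs of groups had a correlation of same-numbered deviations over 0.1 (from -0.422 to 0.442).

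Leaving out each library in turn gave 0 to 1 member from E11.5 to E13.5, 5 to 7 from E13.5 to E15.5, 0 to 3 from E15.5 to E18.5, 0 to 4 from E15.5 to P0, 1 to 5 from P0 to adult and 0 to 6 in the esophagus spline. No member was called in the esophagus spline without E10.5 esophagus 1. Myh13 between kinds of library ran from -3.762 to 0.229, the sign turning without short-code E15.5 esophagus 1. The difference between ages in the log2 ratio of Myh8 to Myh3 stayed between 4.92 and 5.05 from E13.5 to E18.5. From E13.5 to E15.5 it stayed between 3.85 and 4.196. With 2 libraries a group and few Myh13 and Myh15 counts before E15.5, small changes were not detectable. Of the shares checked in single groups, 8 moved by at least the SD of their pair with merged exon length and 2 did not. Without division by length 3 moved and 7 did not. The number of groups led by Myh3 kept within 1.5 times in both.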
